A study of Mus musculus with 9 samples.

Results

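Open promoters that gained chromatin accessibility with Snai1 were taken from the authors' deposited table of promoter windows, which compares hematopoietic progenitor cells carrying a Snai1 vector with cells carrying the empty vector. Accessibility was measured by ATAC-seq, which inserts sequencing adapters into open DNA with a transposase. The cells were HPC7, a mouse progenitor line kept in stem cell factor; 3 libraries came from cells with the empty MIG retroviral vector (EV) and 3 from cells with the same vector carrying FLAG-tagged wildtype Snai1. Another 3 libraries of the mutant mut5Snai1 were not analysed here. HPC7 is 1 line and Snai1 was forced from a retrovirus. Whether a group's libraries stem from separate infections is not stated, so the spread behind the authors' p-values may be technical only. The table gives 1 value per group, a log2 concentration (its measure of the reads in a window), with no value per library and no read depth. Whether it is scaled by window width is not stated. Minus-strand windows are shorter than plus-strand ones. Those of Eef1d, S100a1 and Emc3 stood lower in EV than the longer windows of Tigd5, S100a13 and Fancd2 that contain them. Levels, and any limit set on them, may thus depend on width and strand, which was not tested. Of the 10271 windows, 9622 had a log2 concentration of 8 or more in EV (called open here), and 9243 of these remained after leaving out chromosome 16 and the start of chromosome 4 (335 and 62 windows of the table). The promoters described here were selected on their log2 concentrations in EV and Snai1: the value in Snai1 had to be at least 0.4 higher, which gave 176 windows at 176 genes (1.9% of the 9243). Since these values chose the windows, their levels, changes and FDR values (the p-value adjusted over all windows) are given as a description. The promoters of all 8 stem and progenitor marker genes, Kit, Tal1, Lyl1, Lmo2, Gata2, Runx1, Myb and Spi1, had a window in the table. So did all 6 erythroid and megakaryocyte markers, 5 of 7 granulocyte and monocyte markers and 3 of 5 mast cell and basophil markers. Those of 4 fibroblast and 4 lymphoid markers had none. Having a window thus did not single out stem and progenitor genes among blood cell genes.

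Promoters are the stretches around gene starts where transcription is set up. Most open promoters of mammals lie in CpG islands and are open in many cell types, whereas promoters poor in CpG tend to open in particular lineages under transcription factors of that lineage, such as Runx1, PU.1 and the AP-1 proteins in blood cells. Snai1 is a zinc finger protein that binds the E-box CAGGTG and is best known as a repressor, which recruits the histone demethylase Lsd1 with its partner CoREST and histone deacetylases through an N-terminal SNAG domain.

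A few promoter sequences are given as examples. RefSeq (GRCm38.p6, the coordinates of mm10) gave a 300-base promoter, 250 bases before to 50 after the start, for 132 of the 176 promoters. The 250 bases before the start are printed, 5′ to 3′ on the gene's own strand, for the promoter with the largest gain (Crip1) and for 5 other gaining promoters that carry motifs described in the next paragraphs. Capitals mark, in either orientation, the Runx letters TGTGGT, the AP-1 letters TGANTCA, the PU.1 letters AGGAAGT, the Snai1 letters CAGGTG, the CCAAT box and TATAAA.
Crip1 (chr12:113151762-113152011, plus strand): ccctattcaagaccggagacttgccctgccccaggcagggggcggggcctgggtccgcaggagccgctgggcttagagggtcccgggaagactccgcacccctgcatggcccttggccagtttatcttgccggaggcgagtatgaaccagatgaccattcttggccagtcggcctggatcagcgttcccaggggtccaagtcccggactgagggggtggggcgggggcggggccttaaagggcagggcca
Tbxas1 (chr6:38918736-38918985, plus strand): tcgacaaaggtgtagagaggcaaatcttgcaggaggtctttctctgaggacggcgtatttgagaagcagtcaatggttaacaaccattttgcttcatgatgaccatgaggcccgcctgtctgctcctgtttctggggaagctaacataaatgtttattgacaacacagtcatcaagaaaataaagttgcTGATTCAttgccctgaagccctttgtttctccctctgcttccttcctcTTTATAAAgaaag
S100a4 (chr3:90603520-90603769, plus strand): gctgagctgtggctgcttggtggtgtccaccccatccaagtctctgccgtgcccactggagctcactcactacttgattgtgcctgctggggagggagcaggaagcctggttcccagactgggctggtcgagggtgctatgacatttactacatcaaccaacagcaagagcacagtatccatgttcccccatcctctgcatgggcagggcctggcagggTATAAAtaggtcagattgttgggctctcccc
Clec4e (chr6:123289872-123290121, minus strand): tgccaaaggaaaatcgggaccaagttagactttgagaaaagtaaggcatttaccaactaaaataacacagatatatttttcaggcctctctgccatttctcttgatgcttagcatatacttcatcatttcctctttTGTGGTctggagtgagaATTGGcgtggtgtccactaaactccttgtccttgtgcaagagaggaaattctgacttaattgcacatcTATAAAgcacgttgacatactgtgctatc
Itgax (chr7:128129300-128129549, plus strand): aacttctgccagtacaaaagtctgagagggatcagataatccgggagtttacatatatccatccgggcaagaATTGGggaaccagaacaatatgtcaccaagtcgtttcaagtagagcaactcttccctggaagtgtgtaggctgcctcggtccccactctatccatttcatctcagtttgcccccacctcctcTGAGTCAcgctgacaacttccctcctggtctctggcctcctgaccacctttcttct
Gimap9 (chr6:48675885-48676134, plus strand): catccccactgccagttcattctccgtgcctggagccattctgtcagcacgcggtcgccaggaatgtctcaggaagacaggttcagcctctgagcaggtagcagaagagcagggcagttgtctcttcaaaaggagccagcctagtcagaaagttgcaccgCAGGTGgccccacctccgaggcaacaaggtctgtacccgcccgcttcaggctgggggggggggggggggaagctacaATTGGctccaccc
Crip1 held none of these letters and had a GC content of 68.3% over its 300 bases. Tbxas1 and Itgax each held an AP-1 match, Clec4e a Runx match, and Gimap9 a match to CAGGTG; S100a4 and Clec4e had TATAAA close before the start, as Tbxas1 did even closer to it. A match describes the letters, not binding.

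The gaining promoters were poorer in CpG than open promoters in general. The median ratio of observed to expected CpG was 0.57 (quartiles 0.28 and 0.82) over the 132 gaining promoters with a sequence, against 0.81 (0.65 and 0.94) over 7455 open promoters and 0.72 (0.51 and 0.90) over 282 promoters that lost at least 0.4 on the log2 scale in the same places (losing promoters from here on, 361 windows in all). A ratio below 0.5 was found at 56 of 132 gaining promoters (42.4%), at 935 of 7455 open promoters (12.5%) and at 68 of 282 losing promoters (24.1%). GC content had medians of 57.2%, 61.7% and 64.7% in the same order. The share of promoters that gained was 20.6% (7 of 34) where GC was below 40%, 4.88% (27 of 553) from 40% to 50%, 1.85% from 50% to 60%, 1.13% from 60% to 70% and 1.32% above 70%. The median change of all open promoters fell over the same bands (0.24, 0.13, 0.11, 0.08 and 0.05). A shift with GC thus ran through all open promoters, not the gaining ones alone. The share that lost was 6.46% in the highest band and 1.99% to 3.46% in the others. Within each level of EV that held gaining promoters they also had the lower median CpG ratio: 0.33 against 0.58 at a log2 concentration of 8 to 9, 0.63 against 0.73 at 9 to 10, 0.62 against 0.81 at 10 to 11 and 0.56 against 0.84 at 11 to 12. Serpinb7 had the lowest GC (31.7%, no CpG), followed by the receptor genes Gpr141 (37.3%) and Ptger2 (37.7%). A sequence was at hand for 75% of the gaining promoters, under the 80% needed for a check of all of them, so such a check is void and these values describe the 132 only. No test was run on these differences.

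**Figure D1:**
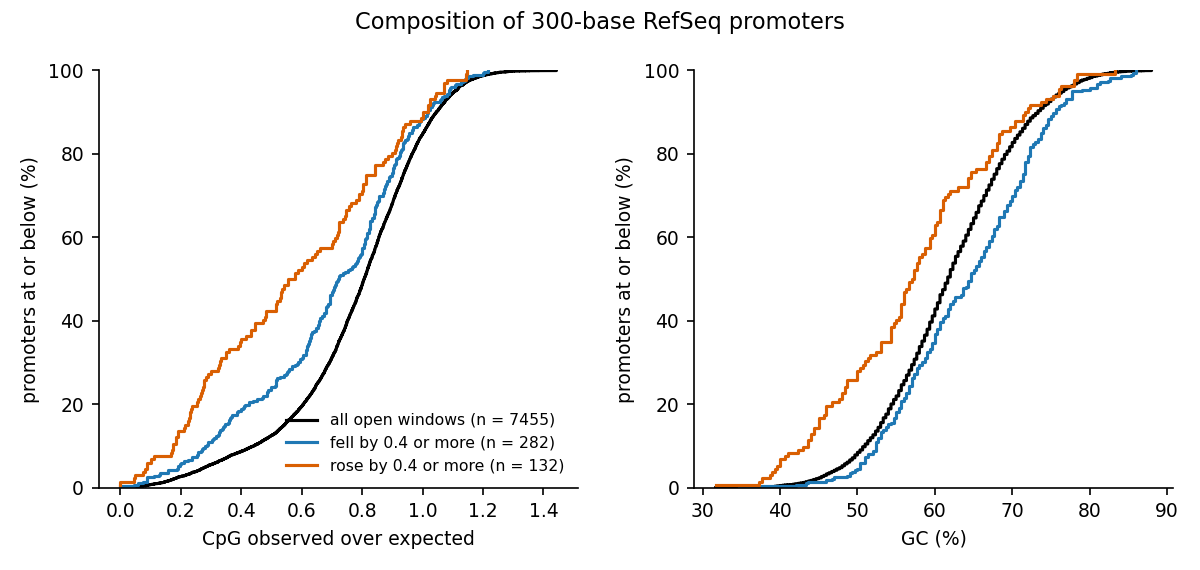
Cumulative share of promoters (%) by CpG observed over expected (left) and by GC content in percent (right), over 300-base RefSeq promoters; orange, gaining promoters (n = 132); black, all open promoters (n = 7455); blue, losing promoters (n = 282). The orange curve lies to the left of the black one in both panels, with medians of 0.57 against 0.81 and 57.2% against 61.7%.

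The Snai1 E-box was least frequent among the gaining promoters. CAGGTG, searched on both strands, was in 15 of 132 gaining promoters (11.4%), 1175 of 7455 open promoters (15.8%) and 75 of 282 losing promoters (26.6%). Its carriers among the gaining promoters included Zscan22, Ptgs2, Il9r, Gimap9, Jmjd1c and Serpinb6a. At a gain of 0.6 or more the share was 4.88%, which rests on Zscan22 and Pgap4 alone. The shorter Snai1 core CAGGT was in 40.2% of gaining, 42.4% of open and 49.6% of losing promoters, so gaining and open promoters were close. The wider E-box CANNTG, which includes CAGGTG, was in 65.9%, 60.4% and 68.1%. The letters of Runx, AP-1 and PU.1 stood the other way. TGTGGT (Runx) was in 35 of 132 gaining promoters (26.5%), against 12.1% of open and 12.1% of losing promoters. TGANTCA (AP-1) was in 15 of 132 (11.4%), against 4.24% and 4.61%, and AGGAAGT (PU.1) in 22 of 132 (16.7%), against 9.56% and 7.09%. At least 1 of these 3 was in 58 of 132 gaining promoters (43.9%), 23.4% of open and 22.3% of losing promoters. The 3 motifs were chosen after the gaining promoters were seen. Each was more frequent there, so the joint share adds no support of its own.

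Most other letters were about as frequent or rarer. AGATAA, bound by GATA factors, was in 7.58% of gaining and 5.35% of open promoters, and TTGCNNAA, bound by C/EBP factors, in 6.82% and 7.53%. CCAAT was in 38.6% and 39.5%. GGGCGG (SP and KLF) was in 48.5% against 68.7%, and CCGGAAG, the ETS letters of the GABP kind, in 10.6% against 22.0%; the latter were also rare among losing promoters (7.45%). The NRF1 core GCGCATGC was in 1.52% against 6.44% and the CRE TGACGTCA in 1.52% against 3.70%, while the cores of the interferon-stimulated element (2.27% against 2.71%) and of the NF-kB site (2.27% against 1.61%) were rare in both. TATAAA on the gene's strand, between 45 and 16 bases before the start, was in 4 of 132 gaining promoters (3.03%: S100a4, Clec4e, H2bc8 and H1f4) and in 0.939% of open promoters. These shares move with base composition. Among promoters with a CpG ratio below 0.5, TGTGGT was in 24 of 56 gaining (42.9%) and 23.4% of open promoters, TGANTCA in 13 of 56 (23.2%) and 103 of 935 open promoters, AGGAAGT in 15 of 56 (26.8%) and 21.7%, and CAGGTG in 7 of 56 (12.5%) and 19.6%. At ratios of 0.5 or more the shares were 14.5% and 10.4% for TGTGGT, 2.63% and 3.27% for TGANTCA, 9.21% and 7.82% for AGGAAGT, and 10.5% and 15.2% for CAGGTG. The AP-1 share at ratios of 0.5 or more rests on 2 of 76 gaining promoters, and the PU.1 letters differed less within each class than over all promoters.

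**Figure D2:**
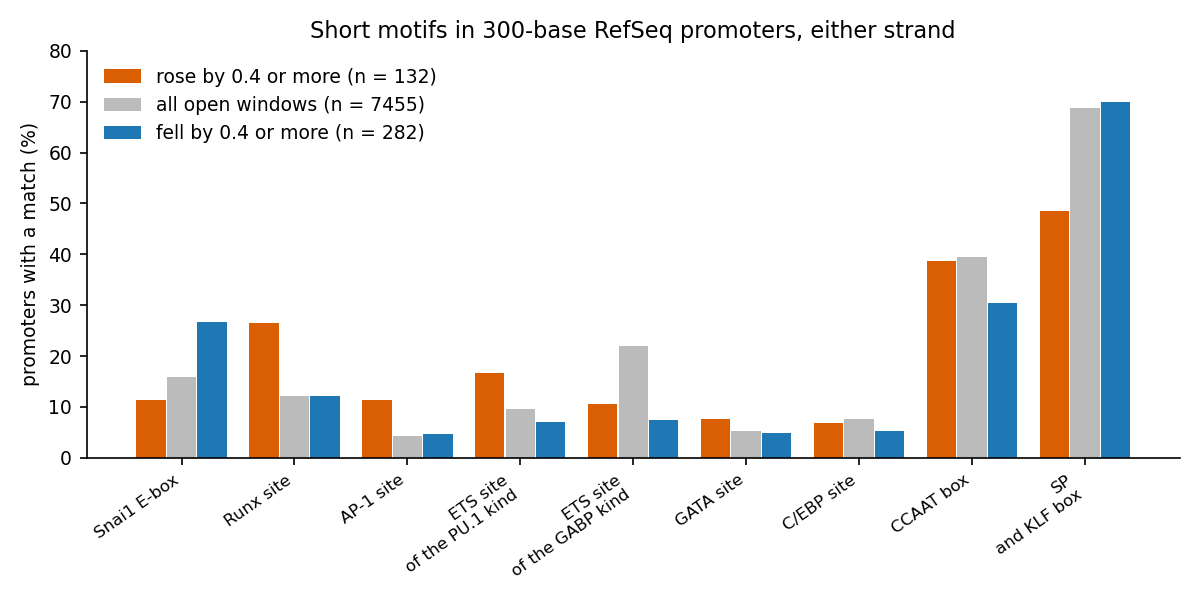
Share of 300-base RefSeq promoters (%) with a match to each short motif on either strand, for gaining (orange, n = 132), all open (grey, n = 7455) and losing promoters (blue, n = 282). The Snai1 E-box is lowest in the gaining promoters (11.4%) and highest in the losing ones (26.6%), while the Runx letters reach 26.5% in the gaining ones and 12.1% in both others.

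The gains were moderate and lay at promoters of modest accessibility. In the authors' deposited table the 176 windows ran from 8.03 to 11.48 in EV (median 9.70, against 10.85 for all open windows in the same places) and from 8.48 to 11.99 in Snai1 (median 10.29, against 10.92). Their changes ran from 0.40 to 1.32 with a median of 0.50, a 1.41-fold gain, whereas the median of all 9243 was 0.09. The gain was 0.5 or more at 89 windows, 0.8 or more at 22 and 1.0 or more at 12. In EV, 159 of the 176 lay below the open median, and 22 of those 159 reached the open median of the Snai1 cells. The share that gained was 10.6% (51 of 483) at an EV level of 8 to 9, 4.24% (56 of 1322) at 9 to 10, 1.59% (55 of 3470) at 10 to 11 and 0.441% (14 of 3176) at 11 to 12; 0 of 755 and 0 of 37 windows gained at 12 to 13 and 13 to 14. The losing promoters thinned out less, from 19.9% at 8 to 9 to 1.86% at 11 to 12, with 20 at levels above 12. They included windows in stretches that were lower as a whole. Chromosome 1, with a median change of -0.14, held 58 of the 361, and chromosome 12 held 43. The median change of the 20 nearest open windows had a lower quartile of -0.19 around losing and 0.07 around gaining promoters. The sequence comparisons with losing promoters include these windows too. The largest gain of an open window was 1.32 while losses reached -5.30, and all 25 windows of the table that opened by 2 or more lay below 8 in EV. This contrast depends on the limit on the EV level, which leaves out the windows with the largest gains. Over all windows of the table gains reached 6.45. An error was worked back from the p-value (the implied SE: the change over the normal deviate that gives this p). It was taken only where the change was at least 0.1 in either direction, at 5952 of the 9243 open windows. Its median over these was 0.13 at level 8 to 9 and 0.08 at levels 10 to 13, so a change of 0.4 was less far outside the error at the weakest promoters.

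The authors' FDR was below 0.05 at 171 of the 176 windows, a count fixed largely by the choice of members; over the whole table, 19.6% of windows passed as higher and 10.3% as lower in Snai1. The rule cut through a dense part of the distribution. In all, 13 windows had a change of exactly 0.40, and 23 open windows lay at 0.39. Just inside were Pik3ap1 (8.08 to 8.48), Spopl (8.31 to 8.71) and 5430427O19Rik (8.67 to 9.07), and just outside, each at 0.39, were H2bc4 (11.57 to 11.96), Hnrnpll (11.14 to 11.53) and Cab39l (11.10 to 11.49). At the limit on the EV level, Socs2 (8.03), Kcne3 (8.05) and Gzmb (8.07) were just inside, and H3c15 (7.99, change 0.48), Nlrp10 (7.94, 1.08) and Acvr1 (7.89, 1.10) just outside.

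**Figure D3:**
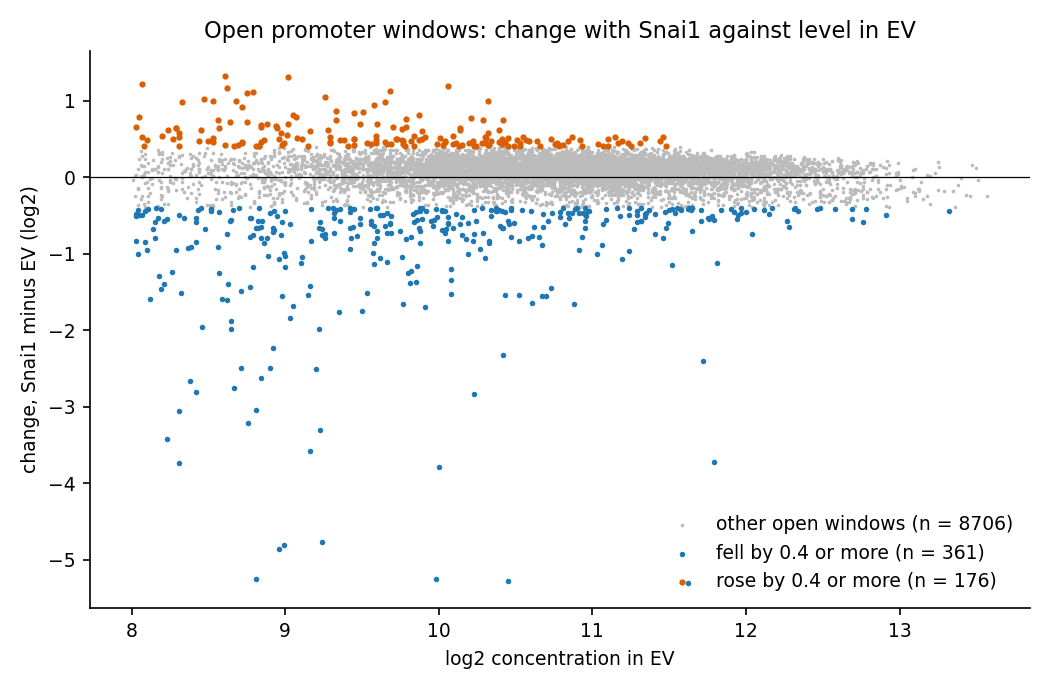
Change in Snai1 minus EV (log2, vertical) against log2 concentration in EV (horizontal) for the 9243 open windows in the places kept; each point is a window, orange for the 176 that gained 0.4 or more, blue for the 361 that lost 0.4 or more. The gains stop at 1.32 and at an EV level of 11.48, while the losses reach -5.30 and extend above 12. Windows below 8 in EV, where gains reached 6.45, are left out by the rule.

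The largest gains came from genes of varied function. Crip1, which encodes a small LIM domain protein, had the largest (mm10, chromosome 12, 113151012 to 113153012, at the RefSeq start): in the authors' deposited table it stood at 8.61 in EV and 9.93 in Snai1, a change of 1.32 (2.50-fold, implied SE 0.11, FDR 4.47e-34). Its nearest other open window, Tedc1, 2.41 kb away, had a change of -0.29. Lgals1, the gene of the secreted lectin galectin-1 (chromosome 15, 78925725 to 78927725), went from 9.68 to 10.80 in the authors' deposited table, a change of 1.12 (2.17-fold, implied SE 0.086) with the smallest FDR of the 176 (6.35e-37). Hspa1b, which encodes the heat-inducible chaperone Hsp70 (chromosome 17, 34959138 to 34960238), went from 8.62 to 9.78 in the authors' deposited table (change 1.16, implied SE 0.10, FDR 8.14e-28); it has a near-identical neighbour, Hspa1a, so its reads are uncertain. Prnp, the prion protein gene, went from 8.75 to 9.85 in the authors' deposited table (change 1.10, implied SE 0.10, FDR 2.23e-25). These 4 changes were all at least 10 times their implied SE.

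Gzmb, Tnfsf9, Tbxas1 and Itgax were also among the 15 largest gains outside predicted genes. Gzmb, the granzyme B gene of cytotoxic cells and mast cells, went from 8.07 to 9.28 in the authors' deposited table, with a wide error (change 1.21, implied SE 0.29, FDR 2.68e-04). Tnfsf9, the gene of the costimulatory ligand 4-1BBL, went from 8.79 to 9.90 in the authors' deposited table (change 1.11, implied SE 0.12, FDR 9.62e-20); the overlapping window of the predicted gene Gm11110 on the other strand moved with it, from 6.26 to 7.54. Tbxas1, which encodes thromboxane synthase (chromosome 6, 38917986 to 38919986), went from 8.68 to 9.68 in the authors' deposited table (change 1.00, implied SE 0.10, FDR 6.88e-21). Itgax, the gene of the integrin chain CD11c of myeloid and dendritic cells, went from 8.33 to 9.31 in the authors' deposited table, again with a wide error (change 0.98, implied SE 0.30, FDR 0.00664). Of the 15 largest gains outside predicted genes, Rhobtb1 went from 10.06 to 11.25, Spsb4, a SOCS box gene, from 8.47 to 9.49, and Tbc1d9 from 8.53 to 9.53 in the authors' deposited table. The others were Immp2l, a mitochondrial inner membrane peptidase gene (10.32 to 11.31), the tyrosine kinase gene Fer (9.65 to 10.63), Irak1bp1 (9.58 to 10.52) and Rnf227 (8.72 to 9.64).

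**Figure D4:**
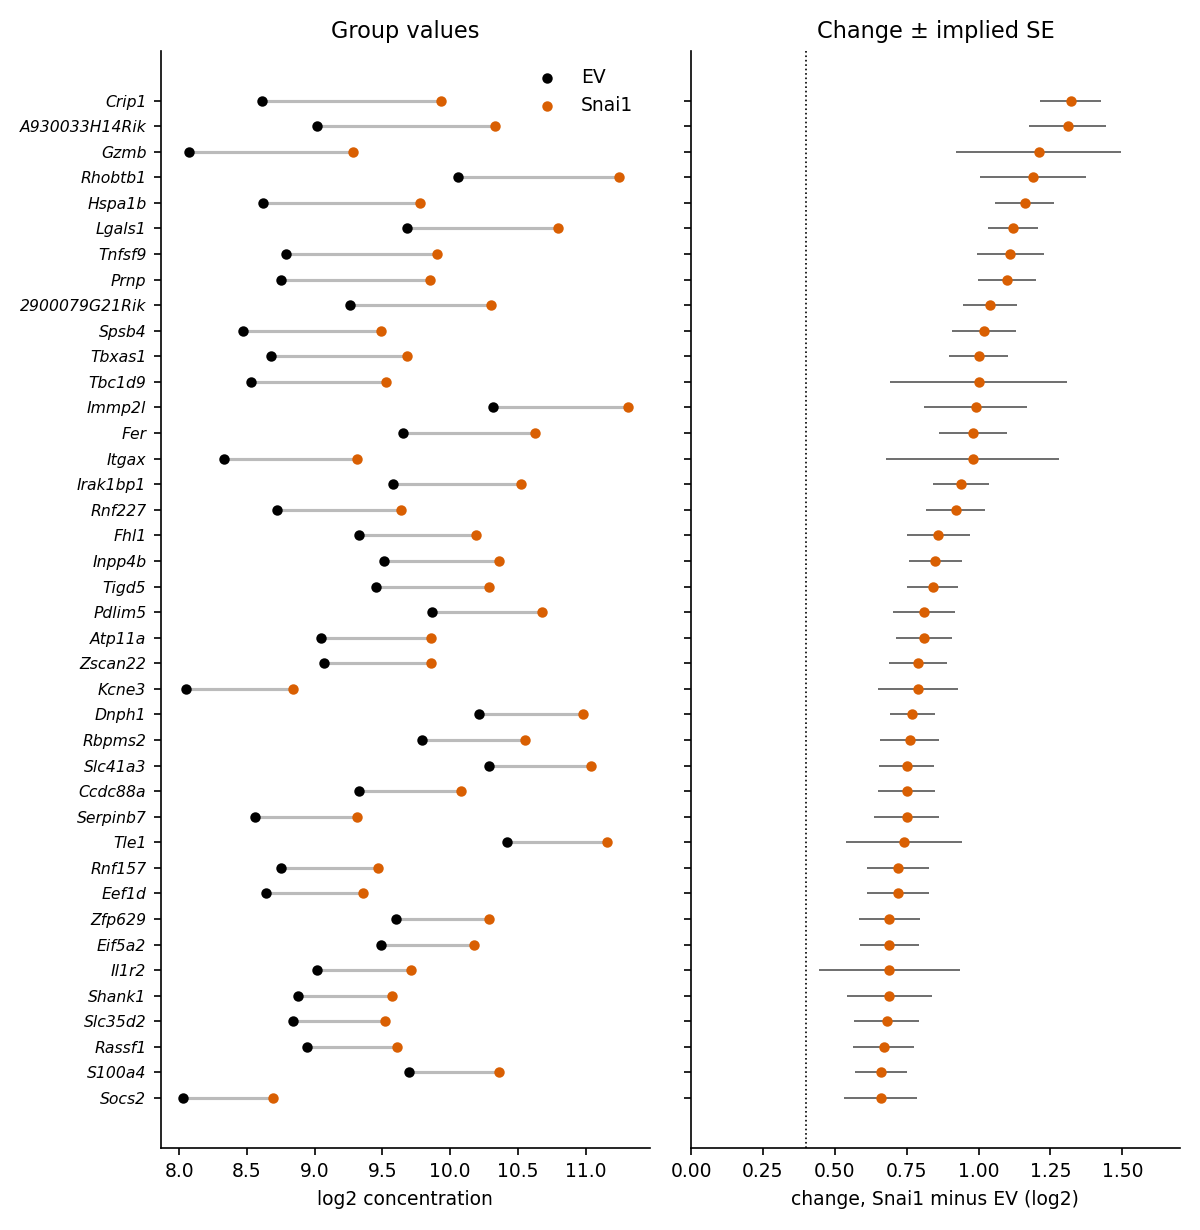
The 40 largest gains among the 176 promoters: left, log2 concentration in EV (black) and Snai1 (orange); right, change in Snai1 minus EV (log2) with bars of 1 implied SE on each side, the dotted line at 0.4. All 40 changes lie between 0.66 and 1.32, and Gzmb, Tbc1d9, Itgax and Il1r2 have the widest bars.

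The 8 gaining promoters with the highest log2 concentration in EV included 3 histone genes. Apbb1ip, which encodes the integrin activator RIAM, stood highest in EV and went from 11.48 to 11.89 in the authors' deposited table (change 0.41, implied SE 0.066, FDR 1.10e-08). The histone genes H1f2 (11.46 to 11.99), H2bc8 (11.44 to 11.91) and H2bc6 (11.34 to 11.85) came next in the authors' deposited table, followed by a window inside Tspoap1 (11.31 to 11.75), Caprin2 (11.25 to 11.66) and Gfod1 (11.23 to 11.68). Pgk1, the glycolytic enzyme gene, was the eighth (11.19 to 11.66) and did not pass (FDR 0.224). Among the smallest FDR values were also Dnph1, a nucleotide hydrolase gene (10.21 to 10.98, FDR 9.02e-21), and Tigd5 (9.45 to 10.29, FDR 6.39e-20), in the authors' deposited table.

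Most histone gene promoters were higher in Snai1. The counts of this and the following lists stand against 19.5% of all open windows higher, 8.17% lower and 1.9% gaining; none of the lists was tested. Replication-dependent histone genes lie in clusters, mainly on chromosomes 13 and 3, and are switched on in S phase to package new DNA. Of 10 open windows that the histone list named, 9 passed as higher in Snai1 and 0 as lower in the authors' deposited table, with a median change of 0.38 against 0.09 for all open windows. H1f2 (0.53), H2bc6 (0.51), H2bc8 (0.47) and H1f4 (0.43) were among the 176, all on chromosome 13. H2bc4 (0.39), H2ac6 (0.37) and H4c9 (0.33) on chromosome 13 and H2bc18 and H2bc21 (0.37 each) on chromosome 3 passed below the limit. The window that did not pass was H1f0 (-0.08), a linker histone gene outside the clusters and not tied to replication. Histone genes of 1 kind are near-copies of each other, and the sources used here do not give how reads with several matches were counted, so single genes are uncertain. The list was fixed with earlier results of these data known. The 150 bases before the start of the 4 gaining histone promoters and of H1f0 show their difference in composition, with the CCAAT box (either orientation) and TATAAA in capitals.
H1f2 (chr13:23738657-23738806, plus strand): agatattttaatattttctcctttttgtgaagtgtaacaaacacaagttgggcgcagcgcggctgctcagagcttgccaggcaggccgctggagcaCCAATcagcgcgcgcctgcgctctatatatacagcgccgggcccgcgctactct
H2bc6 (chr13:23621095-23621244, minus strand): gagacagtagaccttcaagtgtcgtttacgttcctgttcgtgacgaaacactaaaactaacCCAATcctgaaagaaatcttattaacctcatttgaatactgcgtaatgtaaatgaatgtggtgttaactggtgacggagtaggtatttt
H2bc8 (chr13:23571250-23571399, plus strand): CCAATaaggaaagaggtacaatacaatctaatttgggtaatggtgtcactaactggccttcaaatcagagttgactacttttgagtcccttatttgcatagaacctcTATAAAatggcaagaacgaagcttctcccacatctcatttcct
H1f4 (chr13:23622559-23622708, minus strand): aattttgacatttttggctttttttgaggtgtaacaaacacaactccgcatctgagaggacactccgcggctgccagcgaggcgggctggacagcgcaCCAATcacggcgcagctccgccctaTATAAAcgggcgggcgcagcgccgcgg
H1f0 (chr15:79028062-79028211, plus strand): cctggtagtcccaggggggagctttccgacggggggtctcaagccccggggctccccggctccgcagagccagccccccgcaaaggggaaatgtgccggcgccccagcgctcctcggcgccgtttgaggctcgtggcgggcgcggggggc
Each of the 4 gaining histone promoters held CCAAT in these bases, H2bc8 and H1f4 also TATAAA, and H1f0 neither. These letters did not set the 4 apart among the clustered genes: over the 300 bases, H2bc18 and H2ac6, which stayed under 0.4, held CCAAT and H2ac6 also TATAAA, while H4c9 held neither. GC content over the 300-base promoter was 50.3% in H1f2, 41.0% in H2bc8, 54.3% in H1f4 and 75% in H1f0. Of 54 cell cycle and DNA replication genes, 18 passed as higher and 1 as lower in the authors' deposited table, with a median change of 0.15. The gaining promoters of this list were the D-type cyclins Ccnd2 (10.57 to 11.05, at a window 1140 bp inside the gene) and Ccnd3 (10.78 to 11.19), while Ccnd1 had a change of 0.03.

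Myeloid genes were split. Of 19 granulocyte and monocyte genes with an open window, 2 passed as higher and 4 as lower in the authors' deposited table, and the median change was -0.05. The gaining promoters were Clec4e, which encodes the pattern receptor Mincle (8.95 to 9.59, implied SE 0.10, FDR 2.58e-08), and Tyrobp, the adaptor gene of many myeloid receptors (9.79 to 10.44), which did not pass (implied SE 0.29, FDR 0.0755). Csf3r (-1.69), Ltf (-0.99), Tlr2 (-0.47) and Mmp9 (-0.31) were lower. Of 37 hematopoietic transcription factor genes, 13 passed as higher and 5 as lower (median 0.13). The gaining ones were Cebpe, a granulocyte factor (9.45 to 9.95, implied SE 0.11, FDR 3.39e-05), and Tal1, a stem and erythroid factor (10.45 to 10.86, FDR 7.28e-06, implied SE 0.081), in the authors' deposited table. Runx1, on chromosome 16 and so outside the places kept, stood lower in the authors' deposited table (10.76 to 10.15, a change of -0.61, FDR 1.66e-06). The lowest median change of the 20 nearest open windows was -0.89 over all open windows, against -0.455 in the places kept. The places left out thus held a stretch lower than any kept, and whether Runx1 fell with its neighbours was not tested. Of 8 mast cell and basophil genes, 4 passed as higher and 0 as lower (median 0.23), with Gzmb the gaining promoter. The window at Mir142, the hairpin gene of a microRNA abundant across blood cells, went from 10.40 to 10.86 in the authors' deposited table (chromosome 11, 87755864 to 87757864; change 0.46, FDR 8.22e-07). Its mature products, with the seed (bases 2 to 8) in capitals, show that the 2 arms have different seeds.
miR-142a-5p: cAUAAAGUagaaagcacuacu
miR-142a-3p: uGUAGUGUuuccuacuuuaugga
A window inside Tspoap1, on the same stretch of chromosome 11, gained alongside it by 0.44.

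Lists of inflammatory signalling genes held 2 or 3 gaining promoters each. Of 33 genes of NF-kB and innate sensing, 7 passed as higher and 6 as lower in the authors' deposited table (median 0.04). The gaining ones were genes of 2 subunits of the IκB kinase, Ikbkg (9.16 to 9.76, implied SE 0.24, FDR 0.0466) and Ikbkb (9.41 to 9.82, FDR 7.18e-05), and the apoptosis inhibitor gene Birc3 (9.78 to 10.18, FDR 0.00103). The Ikbkg window lay 3.45 kb from that of G6pdx, which had a change of 0.09. Of 30 cytokine and growth factor signalling genes, 2 passed as higher and 1 as lower (median 0.07); Socs2, the feedback inhibitor gene, went from 8.03 to 8.69 at a window 1109 bp inside the gene, and the receptor gene Il21r had a change of 0.51 that did not pass (FDR 0.154) in the authors' deposited table. Of 29 interferon response genes, 10 passed as higher and 2 as lower (median 0.13), with Ifi27 (8.57 to 9.21, FDR 3.50e-07) and Ifit2 (10.28 to 10.73, FDR 1.07e-08) gaining. Targets of inflammatory signalling, named after their values were seen, stood among the 176 as well: Il6 (9.89 to 10.39), the cyclooxygenase gene Ptgs2 (9.77 to 10.24), the chemokine gene Cxcl2 (9.66 to 10.09) and the decoy receptor gene Il1r2 (9.02 to 9.71, FDR 0.0212) in the authors' deposited table. The interleukin and chemokine families were looked up after these members were seen. A gaining share above the 1.9% of all open windows is therefore partly built in. Their median changes lay near the 0.09 of all open windows. Of 17 open windows of interleukins and their receptors, 4 gained, 3 passed as higher and 1 as lower, with a median change of 0.04. Of 3 chemokine windows 1 gained, and the median change was 0.12.

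Adhesion and mesenchymal genes supplied 4 gaining promoters. Of 42 adhesion, integrin and motility genes, 9 passed as higher and 6 as lower in the authors' deposited table, and the median change of 0.09 was that of all open windows; the share higher was near the 19.5% of all open windows. Besides Itgax they were the junction receptor gene Pecam1 (8.96 to 9.46, FDR 1.14e-04) and Itga4, the integrin chain that holds progenitors to VCAM-1 (11.07 to 11.48, FDR 6.65e-04). Of 13 mesenchymal and fibroblast genes, 5 passed as higher and 1 as lower (median 0.14), with S100a4, a calcium-binding protein gene linked to cell motility, gaining (9.70 to 10.36, FDR 9.33e-12, implied SE 0.090) in the authors' deposited table.

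Some small gene families were looked up after their members had been seen among the 176, so their counts are a description. Of 5 open S100 windows, S100a4 (0.66), S100a13 (0.57) and S100a1 (0.54) gained, S100a10 had a change of 0.27 and S100a11 of 0.15; the S100a13 and S100a1 windows overlap and share reads. Of 6 windows of the LIM domain genes named Crip, Fhl or Pdlim, Crip1, Fhl1 (0.86) and Pdlim5 (0.81) gained and the other 3 lay between 0.06 and 0.19. Of 4 windows of the Gimap genes, a cluster of lymphocyte GTPase genes on chromosome 6, Gimap1 (0.46), Gimap5 (0.43) and Gimap9 (0.43) gained and Gimap8 had a change of -0.18. Of 11 windows of TNF ligand and receptor genes, Tnfsf9, Tnfsf12 (0.65) and Tnfrsf26 (0.63) gained, 3 more passed as higher and 0 as lower in the authors' deposited table, with all 11 between 0.01 and 1.11. Clade B serpins, some of which inhibit granule proteases, had 6 open windows, of which Serpinb7 (0.75), Serpinb1a (0.42) and Serpinb6a (0.41) gained. Among 13 windows of prostanoid and leukotriene genes, Tbxas1, Ptgs2 and the prostaglandin receptor gene Ptger2 (0.45) gained, whereas the receptor gene Ptger1 changed by -0.45. Of 4 galectin windows, Lgals1 alone was above 0.21.

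**Figure D5:**
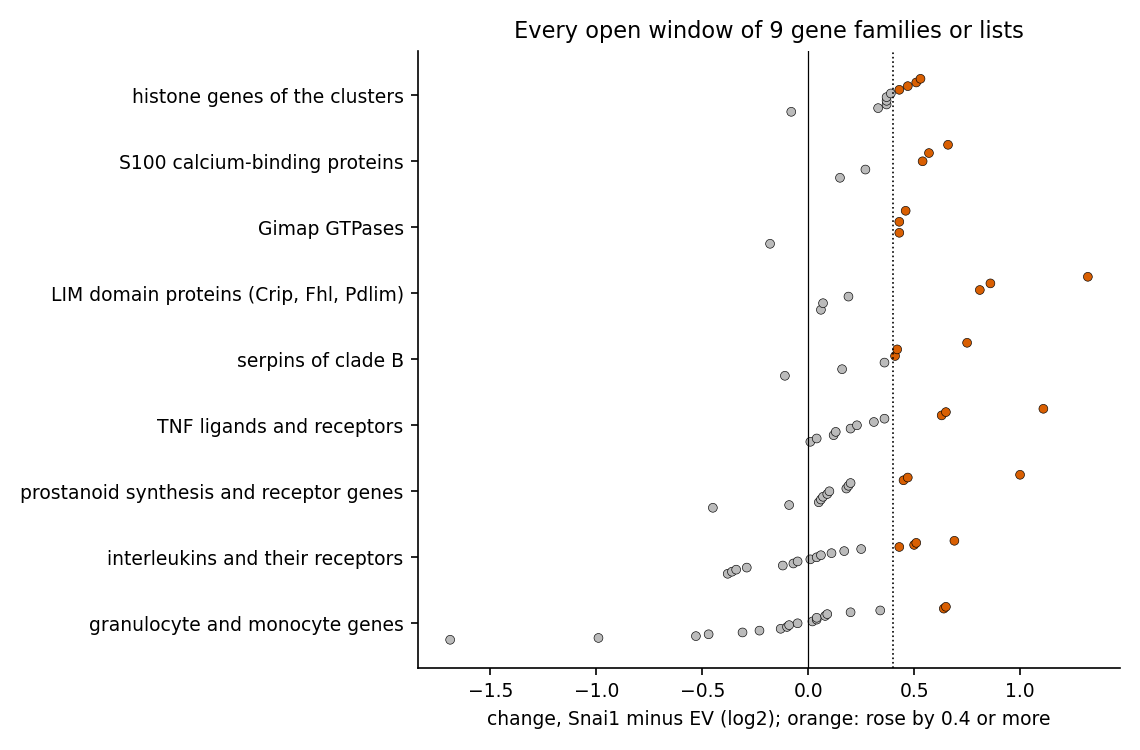
Change in Snai1 minus EV (log2) at every open window of 9 gene lists or families; each point is a window, orange where it gained 0.4 or more, and the dotted line marks 0.4. The histone windows crowd around the line apart from H1f0 (-0.08), while the granulocyte and monocyte genes run from -1.69 to 0.65.

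Other lists held 1 gaining promoter or a few among many. Solute carriers had 4 of 149, with Slc41a3 (0.75) and Slc35d2 (0.68) the largest, then Slc25a24 (0.51) and Slc7a8 (0.42); 23 of the 149 passed as higher and 11 as lower in the authors' deposited table. Zinc finger genes named Zfp had 1 of 269, Zfp629 (0.69), with 52 higher and 23 lower. Trim genes had 1 of 33 (Trim13, 0.57; 11 higher, 4 lower), genes named Tmem 1 of 113 (Tmem17, 0.52; 27 higher, 5 lower), and lysosome, autophagy and granule genes 1 of 47 (Ctsc, the protease gene that activates granule serine proteases, 0.51; 8 higher, 3 lower). Inpp4b, a phosphoinositide phosphatase gene, was the gaining promoter of 42 insulin, PI3K and mTOR genes (9.51 to 10.36, FDR 4.04e-18; 4 higher, 7 lower) in the authors' deposited table. Hspa1b was that of 42 heat shock and folding genes (11 higher, 3 lower), Ier2 (0.41) that of 27 AP-1, stress and immediate early genes (2 higher, 2 lower) and Pgk1 that of 43 metabolic genes (6 higher, 2 lower). Non-coding and predicted genes had 10 of 376 (80 higher, 35 lower), led by A930033H14Rik (1.31) and 2900079G21Rik (1.04).

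Some further gaining promoters belong to genes of known blood cell proteins; they were picked after their values were seen. Of 31 open windows of genes named Cd, a family looked up later, 3 gained, 9 passed as higher and 2 as lower in the authors' deposited table, with a median change of 0.13. Cd34 (-0.39) and Cd46 (-0.84) were the lower ones, both on chromosome 1, where the median change of open windows was -0.14. The surface receptor genes Cd180, a relative of the Toll-like receptors on B cells and myeloid cells (10.14 to 10.75), Cd84, of the SLAM family (8.31 to 8.83), Cd52 (8.83 to 9.24) and Ly75, which encodes the endocytic receptor DEC-205 (9.38 to 9.86), gained in the authors' deposited table. So did genes that act inside leukocytes: the SLAM adaptor gene Sh2d1b1 (10.14 to 10.78), the Toll-like receptor adaptor gene Tirap (8.27 to 8.77), the tyrosine phosphatase gene Ptpn22 (10.92 to 11.41), the docking protein gene Dok3 (10.30 to 10.74) and the myosin gene Myo1f (11.17 to 11.61), in the authors' deposited table. Antigen presentation was represented by H2-Ob, a chain of the class II modulator H2-O (10.39 to 11.01), Wdfy4, needed for cross-presentation (11.10 to 11.60), and the immunoproteasome gene Psmb10 (8.72 to 9.17). Srgn, which encodes the granule proteoglycan serglycin (9.82 to 10.29), Fut7, the fucosyltransferase gene of selectin ligands (10.84 to 11.31), and Trf, the transferrin gene (10.55 to 11.07), also gained in the authors' deposited table. Each of these had an FDR below 0.05, the largest being that of Cd52 (0.0116).

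Further gaining promoters belonged to genes found in many cell types. Nucleic acid genes included Fancd2 and Rnaseh2b, a ribonuclease H2 subunit gene (10.20 to 10.65), in the authors' deposited table. The lipid flippase genes Atp11a (9.05 to 9.86) and Atp8b4 (8.45 to 9.07) gained, out of 8 open windows of that family, of which 2 passed as higher and 1 as lower. Among the larger gains of this kind were the RNA-binding protein gene Rbpms2 (9.79 to 10.55), Ccdc88a, which encodes the actin-binding protein girdin (9.33 to 10.08), the translation factor gene Eif5a2 (9.49 to 10.18), the tumor suppressor gene Rassf1 (8.94 to 9.61) and Ahnak, a giant scaffold protein gene (9.28 to 9.89), in the authors' deposited table. The methionine sulfoxide reductase genes Msrb1 (9.87 to 10.35) and Msra, the latter at a window inside the gene, were both in the set.

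No gaining promoter was found in 13 of the 34 lists. With 1.9% of all open windows gaining, the shorter lists would hold under 1 at that share, so a count of 0 there is near the background. The numbers in brackets stand against 19.5% of all open windows higher and 8.17% lower. These were 12 erythroid and megakaryocyte genes (2 higher, 1 lower), 4 lymphoid genes (1 and 1), 10 epithelial genes (1 and 3), 25 genes of SNAG repressors with the Lsd1, CoREST and HDAC complex (3 and 4), 54 of the MAP kinase pathway (6 and 8) and 41 of Wnt, TGF-beta, BMP and Notch signalling (5 and 9), all in the authors' deposited table. The others were 31 p53, growth arrest and apoptosis genes (2 and 4), 75 chromatin and DNA modifiers (11 and 5), 48 Rab GTPases (8 and 8), 87 ribosomal proteins (16 and 2), 69 mitochondrial ribosomal proteins (11 and 2), 37 ubiquitin-specific proteases (6 and 2) and the olfactory and vomeronasal receptors, which had 0 open windows. In all, 50 of the 176 genes were in at least 1 list and 126 in none.

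The gaining promoters lay on all chromosomes kept but chromosome 18, a few of them close together, such as the 3 Gimap genes and the histone genes H2bc6 and H1f4. Chromosomes 14 (14 of 315 open windows, 4.44%), 13 (13 of 356, 3.65%) and 6 (16 of 451, 3.55%) had the largest shares among chromosomes with more than 3 windows, and chromosome 18 had 0 of 232; chromosome Y had 2 of its 3 windows, Ddx3y (0.60) and Uty (0.52), and Eif2s3y had 0.21. The nearest other open window that had not gained had a median change of 0.09, the same as for all open windows, and was above 0 beside 69.9% of the 176, the same share as for all open windows. Such neighbours lie below 0.4 by construction, so these values do not show how often gaining promoters adjoin each other. It was 0.3 or more beside 13 promoters, 4 of them the histone genes near H2bc4. Set against the median of its 20 nearest open windows, the gain was still 0.4 or more at 90 promoters and 0.3 or more at 147. On chromosome 1, where the median of open windows was -0.14, 9 of 536 gained.

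Overlapping promoters gained in pairs. In 5 pairs of genes on opposite strands both windows were among the 176: Rhobtb1 (1.19) with A930033H14Rik (1.31), starts 441 bp apart, Tigd5 (0.84) with Eef1d (0.72), S100a13 with S100a1, Vps16 (0.43) with Pced1a (0.47) and the Fanconi anemia gene Fancd2 (0.42) with Emc3 (0.50), starts 44 bp apart. The windows of a pair share 660 bp or more and thus reads, so the 10 windows are not independent. The start of a gene lay exactly at the inferred start of 125 of the 176 windows (71.0%, against 73.2% of open windows) and within 1000 bp of 163. The other 13 lay inside genes (7.39%, against 2.4% of open windows and 3.6% of losing ones), among them windows in Msra, Gcfc2, Gpr34, Map1a, Socs2 and Ccnd2; such a window may belong to another promoter or to a non-coding transcript. Protein-coding genes were 171 of the 176 (97.2%, against 96.4%), with 4 long non-coding RNA genes and Mir142.

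For 13 of the 176 the authors' p-value implied an error above 0.17, against a median of 0.10. These were Immp2l, Rhobtb1, Tle1, Kcnh2, Ikbkg, Il1r2, Il21r, Gzmb, the long non-coding RNA gene Morrbid, Tyrobp, Pgk1, Itgax and Tbc1d9, in rising order of implied SE from 0.18 to 0.31. The 5 that did not pass at FDR 0.05 were among them: Tyrobp (0.65, FDR 0.0755), Kcnh2 (0.46, FDR 0.135), Il21r (0.51, FDR 0.154), Morrbid (0.50, FDR 0.179) and Pgk1 (0.47, FDR 0.224) in the authors' deposited table. Pgk1 and Il21r stood at 11.19 and 10.31 in EV, levels at which the median implied SE was 0.08. Without values per library, which library set these errors cannot be read from the table.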

How the data were processed

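ATAC-seq libraries of HPC7 cells with EV, Snai1 or mut5Snai1 (3 each, 9 in all) were processed with fastp, Bowtie2, Picard and DiffBind on mm10, per the submitters' processing notes; these notes name no versions, and how reads were shifted, counted and scaled is not stated in the sources used. The deposited table holds, per the file headers, log2 concentrations per group, the log2 fold (EV minus Snai1), and the p-value and FDR of the authors' comparison. It has 0 columns that belong to 1 library, so the authors' p-value and FDR stand as deposited and no test was run here. After dropping 3 repeated rows of 10274, the change was taken as Snai1 minus EV of the deposited log2 group values, equal to the deposited fold with its sign turned within 0.01.

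Windows of 2001 bp were read as plus-strand starts (start plus 1000) and those of 1101 bp as minus-strand starts (start plus 100), and named by the nearest RefSeq start on that strand within 1000 bp, preferring an exact one, or else the gene that spans it. RefSeq promoters were those within 1000 bp; the other 44 of the 176 had none. Gene assignment, selection and motif search were tested on simulated data. Python 3.11.15, pandas 2.3.3, numpy 2.4.6 and scipy 1.17.1 were used. The promoters and lists were chosen with earlier results of these data known, and motifs other than the E-boxes after the members were seen. Genes named are the 15 largest changes, the 8 highest in EV and the 8 smallest FDR values outside predicted genes, up to 4 per list, and the edges of the rule; others are said to be chosen later or belong to a pair, family or position described. A few genes and 1 list are not reported here. Alternatives changed the thresholds, the centring, the places left out, the distance to a start and the motif.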

Additional observations from a re-analysis of the deposited data

How the results depend on the processing

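The number of gaining promoters follows the limits of the rule. It was 176, and 69 with an EV level of 10 or more, 541 at a change of 0.3, 89 at 0.5 and 55 at 0.6. With the median of all windows (0.08) subtracted it was 99, all among the 176, and with the local median subtracted, an alternative added after the data were seen, it was 97, of which 90 were among the 176. The count stayed within 1.5 times under the other 6 settings tried: EV levels of 7 (221) or 9 (125), the deposited fold (175), chromosome 16 and the start of chromosome 4 kept (241), repeated rows kept (176), and windows of wide implied SE left out (163, also added later). The count called by the authors stayed within 1.5 times at FDR 0.01 (163) and 0.001 (143). The share at an annotated start was 71% for exact starts, 88.6% within 100 bp and 92.6% within 1000 bp. The share with CAGGTG was 11.4%, and 65.9% for CANNTG and 40.2% for CAGGT. All open promoters had 15.8%, 60.4% and 42.4% in the same order. At a change of 0.6 or more the CAGGTG share was 4.88%. Median GC (56.7% to 57.7%) and the median change of the nearest neighbours (0.08 to 0.10) moved little. No paired analysis was possible because the table holds 1 value per group and no value per library; leaving out a replicate could not be run for the same reason. Read depth is not given, so its effect on weak windows was not tested.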
